A study of Homo sapiens with 8 samples.

Results

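Methylated DNA at 10 genes of the neuronal cytoskeleton and the growing neurite was mapped in 8 human neuroblastoma cell lines. The genes were taken by name from the GENCODE annotation of GRCh37 and were 10 of 20098 protein-coding genes on chromosomes 1 to 22 and X. They code for the intermediate filament proteins peripherin (PRPH), the light, medium and heavy neurofilament chains (NEFL, NEFM, NEFH), alpha-internexin (INA), nestin (NES) and vimentin (VIM), for the growth cone protein GAP43, for the tubulin-binding stathmin STMN2 and for the dendritic microtubule-associated protein MAP2. Neuroblastoma is a childhood tumour of the sympathetic nervous lineage, and untreated cultures of established lines were used. According to their labels, 4 lines carry an amplified MYCN oncogene (MNA lines LAN-2, IMR-32, N206 and CHP-902R) and 4 do not (single copy lines SJNB-1, CLB-GA, SK-N-AS and SH-SY5Y). Each line gave 1 library, so the lines of a group are its replicates and no line has a repeat of its own. Sheared DNA was captured with the methyl-CpG-binding domain of MBD2 and sequenced (MBD-seq), and the deposited lists hold the regions where captured fragments piled up (peaks).

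Intermediate filaments are rope-like polymers that give a cell its mechanical stability, and their make-up changes as a neuron matures. Precursor cells build them from nestin and vimentin, while differentiated neurons use peripherin, alpha-internexin and the neurofilament chains, with peripherin typical of peripheral and sympathetic neurons. Methylation of a dense run of CpG dinucleotides at a transcription start site is commonly found at silent genes, whereas methylation inside a gene is also common at genes that are transcribed.

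The lists held between 70816 (SJNB-1) and 112412 (LAN-2) peaks, which covered 39.8 to 61.0 Mb of the genome. The number of reads behind each line's list is not given in the files, so a gene without a peak is not shown to be unmethylated. As a check of the MYCN labels, the share of sequence under peaks was taken within 1 Mb to either side of MYCN. Peaks covered 8.68% to 19.8% of it in MNA lines and 1.87% to 4.76% in single copy lines, and these ranges did not overlap. Extra copies of this region and methylation cannot be told apart in the lists, so no methylation difference is read from these values. A peak was assigned to a promoter when it reached into a window around an annotated transcription start site (TSS) of the gene, which began 1500 bp before the TSS and ended 1000 bp after it, and to a gene body when it overlapped the gene. Distances below count from the TSS of the canonical transcript, with downstream positive.

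Promoter peaks were present in 22 of the 80 combinations of gene and line, and most of them belonged to a few genes. PRPH had a promoter peak in 8 lines, MAP2 in 7, NEFH and VIM in 3 each and NES in 1. The other 5 genes, NEFL, NEFM, INA, GAP43 and STMN2, had none in any line. Over protein-coding genes as a whole, all 8 lines had a promoter peak at 6.13% and no line had one at 25.9%, against 1 and 5 of the 10 genes. The median was 0.5 lines per gene here and 2 over all protein-coding genes. These counts depend on how many start sites are annotated, since each adds a window. The 5 genes without a promoter peak had windows of 2501 to 3685 bp. Among the genes with one, NEFH and NES had 2501 bp each, PRPH 4475 bp, VIM 7415 bp and MAP2 23716 bp. The comparison with all protein-coding genes was not matched for window size. The picture changed when only peaks lying over the canonical TSS itself were counted, as 3 genes then had one: PRPH in 3 lines, NEFH in 3 and NES in 1. Of 19819 protein-coding genes with a canonical TSS, 11.5% had it under a peak in at least 1 line and 3.86% in at least 3 lines.

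**Figure D1:**
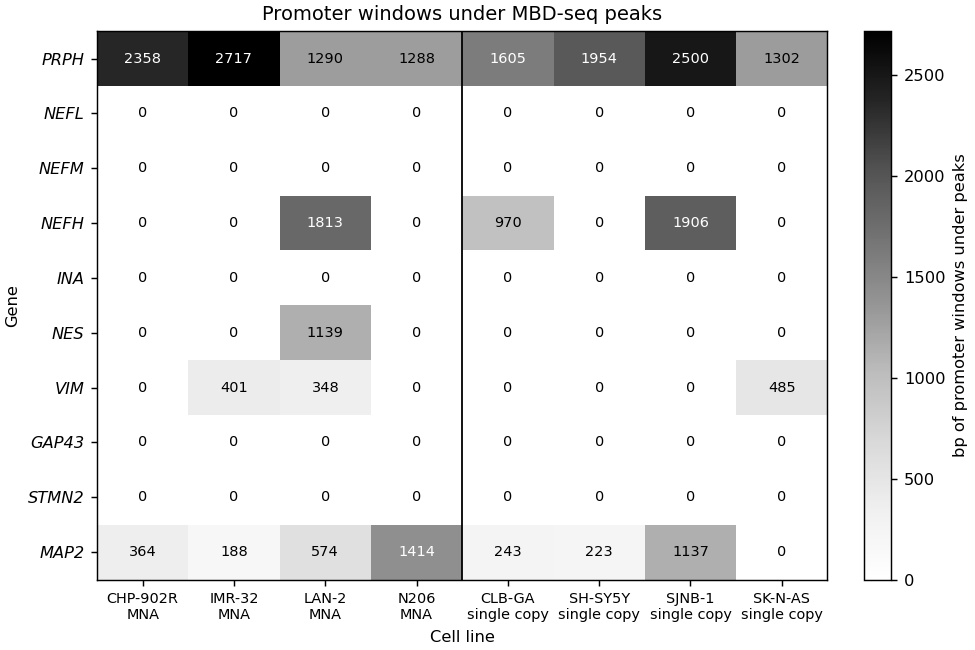
Base pairs of promoter windows under MBD-seq peaks for each of the 10 genes (rows) in each line (columns, MNA lines to the left of the vertical line), with darker cells for more base pairs. PRPH is covered in every line, from 1288 to 2717 bp, NEFH in LAN-2, CLB-GA and SJNB-1, NES in LAN-2, and 5 genes read 0 throughout.

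PRPH (ENSG00000135406, chr12:49688930-49692469, plus strand, 9 exons) was the one gene of the 10 with a promoter peak in every line. The base pairs of its promoter windows under peaks were 1290 in LAN-2, 2717 in IMR-32, 1288 in N206 and 2358 in CHP-902R among the MNA lines, and 2500 in SJNB-1, 1605 in CLB-GA, 1302 in SK-N-AS and 1954 in SH-SY5Y among the single copy lines. The MNA and single copy values overlapped throughout, with means of 1913 ± 736 and 1840 ± 514 bp (SD, n = 4 each). The difference of 73 bp was smaller than either SD (p = 0.914, exact permutation test, two-sided). The best peak of each line was among the strongest of its list. The peak score, which is the negative log10 of the peak caller's p-value multiplied by 10, was 177, 124, 200 and 159 in the MNA lines and 115, 174, 230 and 120 in the single copy lines for the best PRPH peak, in the same order, and between 91.9% and 99.7% of a line's peaks scored lower. A second promoter peak in SJNB-1 scored 99.8, above 88% of its list. The PRPH promoter peaks were also dense in CpG and held 7.06 to 8.69 CpG per 100 bp, while the median peak of a list held 2.41 to 3.14.

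The lines differed in where the PRPH peak began. In CHP-902R it ran from -231 to +2126, in IMR-32 from -179 to +2537, and in SJNB-1 a first peak from -73 to +893 was followed by another from +947 to +2479, so that the TSS and exon 1 were covered in these lines. In the other lines the peak started inside the gene, at +767 in SH-SY5Y, +821 in CLB-GA, +995 in SK-N-AS, +1162 in N206 and +1422 in LAN-2. The last 2 of these starts lie outside the window of the canonical TSS, and N206 and LAN-2 were counted through start sites annotated inside the gene. The start of the gene was therefore covered in 2 MNA lines and 1 single copy line, whereas all 8 lines shared the stretch from +1422 to +2126. This stretch of 705 bp runs from intron 3 to the end of exon 5, codes for part of the filament-forming rod of the protein in 294 of its bases, and holds 65 CpG (9.22 per 100 bp). Upstream of the gene, LAN-2, N206 and CLB-GA also had a narrower peak between -5055 and -4285, with scores of 66.5 to 80.6. The antisense transcript TROAP-AS1 runs through the whole gene on the other strand, and captured DNA carries no strand. The 300 bases below, from the part of the stretch that covers exons 4 and 5, are given because they lay under a peak in every line (GRCh37 chr12:49690752-49691051, plus strand), with each CpG in capitals. They hold 33 CpG.
PRPH, under peaks of all lines: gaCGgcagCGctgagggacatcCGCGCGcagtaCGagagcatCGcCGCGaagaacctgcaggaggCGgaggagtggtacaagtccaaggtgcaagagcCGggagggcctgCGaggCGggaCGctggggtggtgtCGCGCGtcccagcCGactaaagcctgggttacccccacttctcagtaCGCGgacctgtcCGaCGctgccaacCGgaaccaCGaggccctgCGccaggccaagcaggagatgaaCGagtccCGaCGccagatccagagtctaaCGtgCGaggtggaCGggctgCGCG

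NEFH (ENSG00000100285, chr22:29876207-29887379, plus strand, 4 exons), which codes for the heavy neurofilament chain, divided the lines into those with a broad peak over the TSS and those with none. The base pairs under peaks were 1813, 0, 0 and 0 in LAN-2, IMR-32, N206 and CHP-902R, and 1906, 970, 0 and 0 in SJNB-1, CLB-GA, SK-N-AS and SH-SY5Y. The covered lines came from both MYCN groups, and the difference of -266 bp (MNA minus single copy) was smaller than the SD of either group, which was 906 and 914 bp (exact permutation test, two-sided, p = 0.714). The peak ran from -812 to +1307 in LAN-2 with a score of 199, from -905 to +1158 in SJNB-1 with a score of 182, and from -288 to +681 in CLB-GA with a score of 70.3. In LAN-2 and SJNB-1 the peak scored above 98.4% and 99.1% of the list, but in CLB-GA above 45.1% only. The 970 bp shared by the 3 lines cover the upstream 288 bp and most of exon 1 and hold 133 CpG, and at 13.7 CpG per 100 bp the CLB-GA peak, which has just this extent, was the densest of all peaks at the 10 genes. The other 5 lines had no peak within the window. What they had lay elsewhere and differed from line to line, with a peak at exon 2 in N206 (score 81.3), at exon 3 in CHP-902R (52.8) and in intron 3 in SH-SY5Y (68). A region at the end of the gene and beyond it, from +11157 to +12428, was under peaks in LAN-2, IMR-32, CLB-GA and SK-N-AS with scores of 54.3 to 73.9. An unnamed antisense long non-coding RNA starts inside the window.

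INA (ENSG00000148798, chr10:105036895-105050103, plus strand, 3 exons), the gene of alpha-internexin, had a promoter nearly as rich in CpG as that of NEFH and no peak there in any line. The window of its TSS held 7.32 CpG per 100 bp, above 89.4% of protein-coding genes, and that of NEFH 8 (above 93.5%), with a median of 4.24 over all. Peaks stood to either side instead. An upstream region from -3176 to -1727 was under peaks in 7 lines, all but LAN-2, with 5 of them over the same 224 bp and scores of 59 to 125. Intron 1 carried peaks from +6766 to +7658 in CHP-902R, IMR-32, LAN-2 and SH-SY5Y and from +7810 to +8509 in SK-N-AS, N206, SJNB-1, IMR-32 and SH-SY5Y. These flanking stretches were poorer in CpG, at 2.45 to 3.05 per 100 bp where most lines overlapped. NT5C2, a gene for a nucleotidase, starts inside the INA window on the opposite strand. Its body contains the whole upstream region and the bases printed below. The 300 bases just upstream of the INA TSS are given because they are dense in CpG and lay under no peak in any line (GRCh37 chr10:105036595-105036894, plus strand), with their 32 CpG in capitals.
INA, under no peak: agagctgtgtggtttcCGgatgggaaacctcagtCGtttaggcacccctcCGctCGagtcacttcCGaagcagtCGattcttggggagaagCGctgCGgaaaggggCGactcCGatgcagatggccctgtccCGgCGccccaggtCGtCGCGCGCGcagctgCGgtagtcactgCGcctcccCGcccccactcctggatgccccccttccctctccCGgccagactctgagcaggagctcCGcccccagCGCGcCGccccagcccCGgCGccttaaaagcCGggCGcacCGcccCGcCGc

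NES (ENSG00000132688, chr1:156638555-156647199, minus strand, 4 exons) codes for nestin, the filament protein of neural precursors, and had its TSS under a peak in a single line. In LAN-2 a peak of 1507 bp from -138 to +1368 scored 327, above 99.8% of that list, and was the highest score at any of the 10 genes. It covered 1139 bp of the promoter window, and the other 7 lines read 0 (MNA minus single copy 285 bp, exact permutation p = 1, two-sided). Inside the gene the lines were more alike. A region from +1864 to +2740 was under peaks in 6 lines, SK-N-AS, SJNB-1, SH-SY5Y, IMR-32, LAN-2 and CHP-902R, and not in N206 or CLB-GA. The scores there were 155, 136, 126, 123, 63.8 and 59.1 in that order, so LAN-2, with the strongest peak over the TSS, had a weak one here. The 543 bp shared by the 6 lines take in exon 2 and parts of introns 1 and 2 and hold 15 CpG (2.76 per 100 bp). Past the end of the gene, a region from +10684 to +12155 was under peaks in IMR-32, LAN-2, N206 and SK-N-AS, and N206 scored 141 there. A piece of each region is given 5′ to 3′ on the strand of the gene to show the contrast in CpG, in capitals. The exon 1 piece, chr1:156646427-156646726, is coding throughout with 43 CpG, and the piece of exon 2 and intron 2, chr1:156644715-156645014, has 9.
NES exon 1, under the peak of LAN-2: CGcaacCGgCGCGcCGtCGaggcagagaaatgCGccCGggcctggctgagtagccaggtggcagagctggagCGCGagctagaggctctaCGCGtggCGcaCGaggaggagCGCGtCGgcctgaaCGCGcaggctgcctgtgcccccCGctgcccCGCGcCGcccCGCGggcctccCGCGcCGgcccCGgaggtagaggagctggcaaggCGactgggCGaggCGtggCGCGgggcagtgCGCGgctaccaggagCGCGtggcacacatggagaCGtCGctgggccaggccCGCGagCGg
NES intron 2, under peaks of 6 lines: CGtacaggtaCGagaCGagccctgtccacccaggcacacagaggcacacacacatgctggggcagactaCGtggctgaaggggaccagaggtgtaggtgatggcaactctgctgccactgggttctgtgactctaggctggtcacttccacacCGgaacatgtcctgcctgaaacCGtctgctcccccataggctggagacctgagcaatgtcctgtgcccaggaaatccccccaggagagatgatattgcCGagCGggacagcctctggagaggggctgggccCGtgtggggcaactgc

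**Figure D2:**
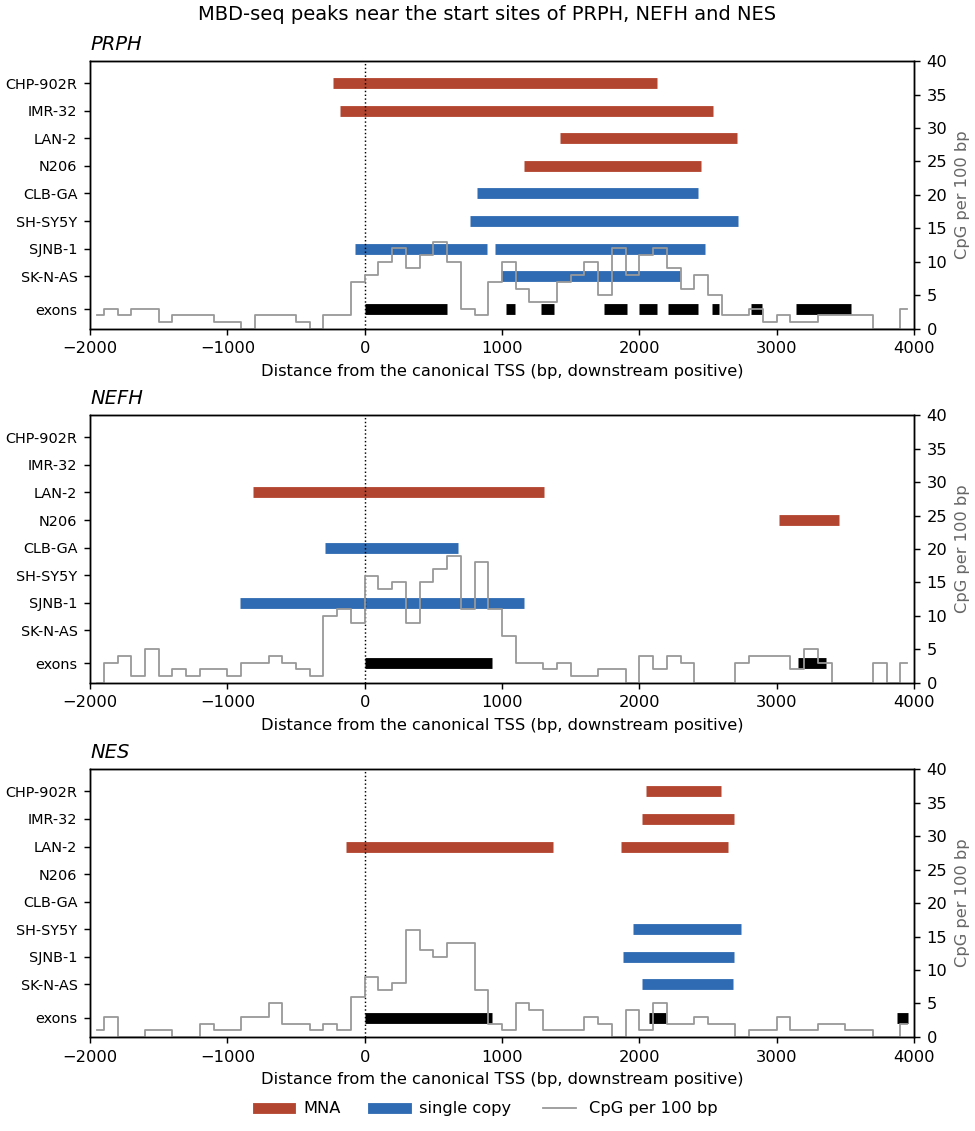
Peaks of each line (horizontal bars, red for MNA and blue for single copy lines) against the distance from the canonical TSS in bp for PRPH, NEFH and NES, with exons in black below and the number of CpG per 100 bp as a grey line (right axis). All lines share a stretch of PRPH from +1422 to +2126, 3 lines cover the TSS of NEFH, and LAN-2 alone covers that of NES while 6 lines share a peak near +2051 to +2593.

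VIM (ENSG00000026025, chr10:17270240-17279592, plus strand, 10 exons) codes for vimentin, a filament protein of mesenchymal and precursor cells. Peaks in its promoter windows covered 401 bp in IMR-32, 348 bp in LAN-2 and 485 bp in SK-N-AS, and 0 in the other 5 lines. None of these lay over the TSS. The IMR-32 and LAN-2 peaks sat at the far upstream edge of the window, from -1474 to -1074 and from -1429 to -1082, and the SK-N-AS peak lay over exons 4 and 5, near start sites annotated within the gene. The scores were 75.3, 50.6 and 55.3, above 58.4%, 1.09% and 19% of the respective lists. The MNA lines averaged 187 ± 217 bp and the single copy lines 121 ± 242 bp (SD, n = 4 each; two-sided exact permutation test, p = 1). A further region around exon 7 was under peaks in LAN-2, N206 and SH-SY5Y, and one upstream of the window, from -3766 to -2947, in LAN-2, CLB-GA and SJNB-1, the latter with scores of 52.1 to 64.3. The antisense gene VIM-AS1 starts in the window of another annotated VIM TSS. Its body contains the IMR-32 and LAN-2 promoter peaks and the region from -3766 to -2947. The antisense long non-coding RNA ENSG00000234961 overlaps the gene body of VIM and contains the whole SK-N-AS promoter peak.

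**Figure D3:**
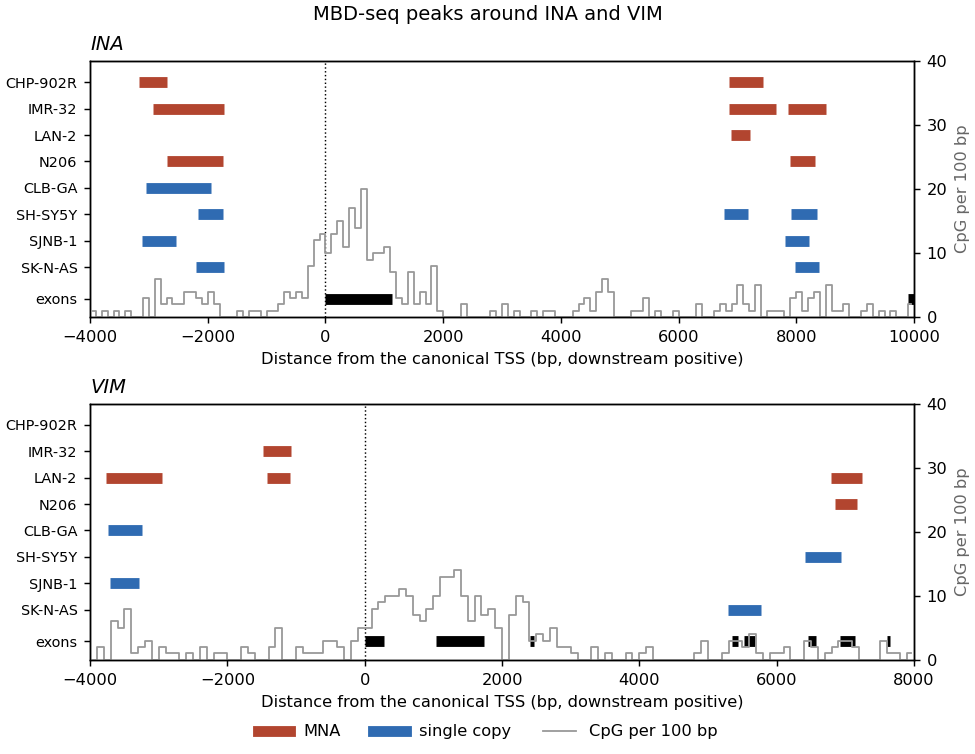
Peaks of each line (bars, red for MNA and blue for single copy lines) against the distance from the canonical TSS in bp for INA and VIM, with exons in black and CpG per 100 bp as a grey line (right axis). The CpG-rich start of both genes is free of peaks in the 8 lines, and the peaks lie upstream or further inside the gene.

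MAP2 (ENSG00000078018, chr2:210288771-210598871, plus strand, 16 exons), the longest of the 10 genes at 310101 bp, had promoter peaks in 7 lines, but none in the window of its canonical TSS. All of them fell on start sites annotated deep within the gene, from +229032 onwards. The 17 TSS positions of MAP2 give windows that add up to 23716 bp, against 2501 bp for a gene with a single TSS. The base pairs under peaks were 574, 188, 1414 and 364 in LAN-2, IMR-32, N206 and CHP-902R, and 1137, 243, 0 and 223 in SJNB-1, CLB-GA, SK-N-AS and SH-SY5Y. The groups overlapped, with means of 635 ± 543 and 401 ± 503 bp (SD, n = 4 each; p = 0.514, two-sided exact permutation test). The best score in a line was between 56.9 and 98.3. Within the gene body MAP2 carried 6, 8, 9 and 9 peaks in the MNA lines and 10, 6, 7 and 7 in the single copy lines, in the same order. These 62 peaks fell into 26 separate regions, of which 10 were seen in a single line and 6 in 4 or more lines. The most widely shared, from +63856 to +64428 and from +235532 to +237313, were found in 5 lines each. In the former the 5 lines had 387 bp of an intron in common, and in the latter at most 4 lines overlapped at any base, over 308 bp of an intron. The rRNA pseudogene RNA5SP118 lies in the gene on the other strand.

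GAP43 (ENSG00000172020, chr3:115342357-115440337, plus strand, 3 exons), a protein of the growth cone membrane, had a promoter with few CpG, 1.4 per 100 bp, and no peak in it. Its body peaks numbered 0, 1, 3 and 1 in LAN-2, IMR-32, N206 and CHP-902R, and 0, 1, 3 and 3 in SJNB-1, CLB-GA, SK-N-AS and SH-SY5Y. The region most often covered was exon 2, which holds most of the coding sequence. Peaks between +52386 and +53155 were present in CHP-902R, IMR-32, N206, SH-SY5Y and SK-N-AS, with scores from 58.5 to 110, and the 321 bp common to these 5 lines were coding throughout. CLB-GA and SH-SY5Y also had a peak at the end of intron 1, from +51833 to +52291. LAN-2 and SJNB-1 had no peak in the gene, and their nearest peaks lay 57350 and 57362 bp from the TSS. The long non-coding RNA ENSG00000241596 overlaps the gene on the same strand.

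NEFL (chr8:24808468-24814235, minus strand) and NEFM (chr8:24771271-24776611, plus strand), neighbouring genes for the light and medium neurofilament chains, were without a peak in promoter or body in all 8 lines. They were the only such genes of the 10, and 9.65% of all protein-coding genes shared this state. Their promoters were rich in CpG, at 7.36 and 6.24 per 100 bp, above 89.7% and 79.7% of protein-coding genes. The distance from the TSS of NEFL to the nearest peak was 43781, 4742, 26584 and 5418 bp in LAN-2, IMR-32, N206 and CHP-902R, and 12822, 12944, 18079 and 23300 bp in SJNB-1, CLB-GA, SK-N-AS and SH-SY5Y. For NEFM it was 8730, 9307, 5967 and 8613 bp, and 5513, 13538, 5563 and 48266 bp, in the same order. Nearly every 45-base stretch in the window of the canonical TSS occurs once in the genome for both genes (2455 of 2457 for NEFL, 2457 of 2457 for NEFM). Each of the other genes also had 2457 of 2457, so this does not set NEFL and NEFM apart. Gene bodies beyond the window were not examined in this way. A long non-coding RNA starts on the other strand inside each promoter window, ENSG00000272157 at NEFL and ENSG00000272163 at NEFM. STMN2 (chr8:80523352-80578393, plus strand), which regulates microtubule growth in axons, had no promoter peak and between 0 and 2 body peaks. These numbered 1, 0, 1 and 0 in the MNA lines and 2, 2, 0 and 1 in the single copy lines, in that order. No body region of STMN2 was shared by more than 2 lines. Intron 1 had a peak near +13043 to +13331 in LAN-2 (score 112) and SJNB-1 (64.5) and another near +17105 to +17330 in N206 (116) and CLB-GA (134), so each of these regions was found in a line of either MYCN group. CHP-902R, IMR-32 and SK-N-AS had no peak in the gene.

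Over gene bodies, peaks were present in 51 of the 80 combinations of gene and line, and the median of 6 lines per gene equalled that of all protein-coding genes. Gene length differed widely, so body peaks are compared per length. PRPH had 3.18 peaks per 10 kb and line, NES 1.16, INA 0.852, NEFH 0.783 and VIM 0.535, above the median of 0.482 over protein-coding genes, while MAP2 had 0.250, STMN2 0.159 and GAP43 0.153. NEFL and NEFM had 0. Peaks that lay in both a promoter window and the gene body were counted in both readouts. These include every PRPH body peak and the NEFH and NES peaks over the TSS. A peak counted in full from an overlap of 1 bp, which weighs more in a short gene such as PRPH (3540 bp). The SK-N-AS peak of NEFH met the gene over 16 bp only.

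**Figure D4:**
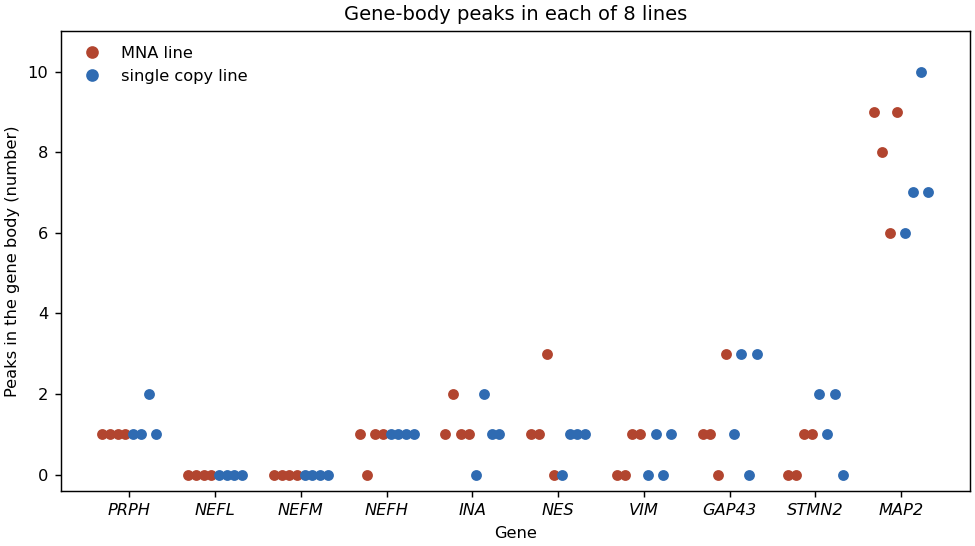
Number of peaks in the gene body (vertical axis) for each of the 10 genes, with a point per line (red for MNA, blue for single copy lines). MAP2 carries 6 to 10 peaks per line, the other genes between 0 and 3, and the 2 colours overlap for every gene.

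The comparison of MNA with single copy lines asked whether methylation at these genes follows MYCN amplification. No difference was detected. The number of genes with a promoter peak was 5, 3, 2 and 2 in LAN-2, IMR-32, N206 and CHP-902R, and 3, 3, 2 and 2 in SJNB-1, CLB-GA, SK-N-AS and SH-SY5Y, which gives 3 ± 1.41 and 2.5 ± 0.577 (SD, n = 4 each). The difference of 0.5 genes turned to -0.167 without LAN-2. LAN-2, with the highest number, also had the longest list, and the share of all protein-coding genes with a promoter peak ranged from 33.4% in SJNB-1 to 41.1% in IMR-32. Body peaks were present at 6.25 ± 0.957 genes in MNA and 6.5 ± 1.29 in single copy lines. With 4 lines against 4, a gene can reach a two-sided p of 0.0286 in Fisher's exact test only when all lines of a group have a peak and none of the other does. Of the 10 genes, 0 separated the groups in this way, for promoters or bodies. Over all 20098 protein-coding genes the share that did so was 0.199% for a promoter peak in MNA lines and 0.104% for one in single copy lines, and 0.0945% and 0.0498% for body peaks, and the count of 0 among 10 genes does not stand apart from this background. Fisher's exact p was 1 for each of the 10 genes in both readouts. After Benjamini-Hochberg adjustment over all genes no gene passed, and the lowest adjusted p of Fisher's exact test was 1. The exact permutation test of promoter base pairs under peaks gave an unadjusted p under 0.05 for 1.66% of 14894 genes and for none of PRPH, NEFH, NES, VIM and MAP2. The other 5 of the 10 genes, at 0 in every line, could not be tested, and NES, covered in 1 line, could give no p other than 1. For the percentage of the gene body under peaks, the same test gave p between 0.286 (STMN2) and 0.943 for the 8 genes with a body peak, and an unadjusted p under 0.05 for 2.8% of 17802 genes.

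The 10 promoters were not in the same order by CpG density as by peaks. The density is that of the window of the canonical TSS, whereas the peaks below are those in the windows of any TSS. In the canonical window alone PRPH had a peak in 6 lines, VIM in 2 and MAP2 in 0, and the counts of the other genes were the same. For PRPH this includes SK-N-AS, whose peak starts at +995 and only just reaches the window, which ends 1000 bp after the TSS. Protein-coding genes were divided into 5 groups of about equal size by this density. In the densest group, from 6.24 to 15.8 CpG per 100 bp, 14.6% had no promoter peak in any line and 9.93% had one in all 8. NEFH, NEFL, INA and NEFM belong to it, and had promoter peaks in 3, 0, 0 and 0 lines. PRPH, VIM and MAP2 fall in the middle group, at 4.48, 4.48 and 3.96 CpG per 100 bp, where 20.1% had none and 5.56% had one in all lines. NES (5.28) stood in the group next to the densest, STMN2 (2.44) in that below the middle and GAP43 (1.4) in the lowest, where 50.7% of genes had no promoter peak.

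Related genes gave a reference for these counts. In 5 lists with 51 genes, 8 genes had no promoter peak, 9 had one in a single line, 11 in 6 lines or more and 5 in all 8, with a median of 3 lines. The 11 other intermediate filament genes had a median of 4 lines, led by LMNA (nuclear lamin A/C) with 8, while DES (desmin of muscle), BFSP2 (a lens filament protein) and GFAP (the astrocyte filament protein) had 7 each. The 11 microtubule-associated and doublecortin genes had a median of 3, with 8 lines for MAPT (the axonal protein tau) and MAP1S and 5 for MAP4. Of 6 tubulin genes, TUBB3, the neuronal beta-tubulin, had a promoter peak in 7 lines, TUBB2A in 2, and TUBB2B, TUBB4A and TUBA1A in 1 each, and the median was 1. The 15 stathmin and growth cone genes had a median of 2, with RTN1 at 8 lines, CRMP1 at 7 and both DPYSL2 and STMN1, a relative of STMN2, at 5, and the 8 adhesion and RNA-binding genes a median of 5, with NCAM1 at 8, CNTN2 at 7 and ELAVL4, ELAVL2 and L1CAM at 5 each. None of the 51 genes separated the MYCN groups in promoter or body.

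**Figure D5:**
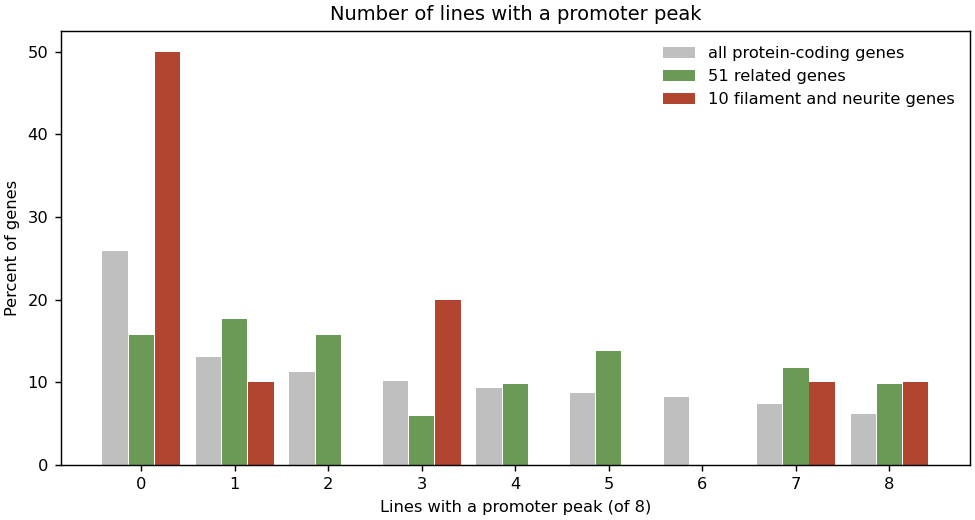
Percent of genes (vertical axis, from 0) by the number of lines with a promoter peak (horizontal axis), for all protein-coding genes (grey), the 51 related genes (green) and the 10 filament and neurite genes (red). Of the 10 genes, 5 have a promoter peak in no line, against 25.9% of protein-coding genes, and 1 has it in all 8. The sets are not matched for window size.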

How the data were processed

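DNA of each line was sheared, captured with the MBD of MBD2 (MethylCollector kit) and sequenced. The authors aligned reads to GRCh37 with Bowtie 0.12.7 and called peaks with MACS, separately in each line. The peak caller's options and any input control are not given in the sources used here. The deposited lists give each peak's position and a score, the negative log10 of the peak p-value multiplied by 10, which is at least 50 (p of 1e-05). They hold no read counts, so neither the depth of each line nor a methylation level can be read from them. Width and score depend on depth, DNA copy number and CpG density.

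Peaks were intersected (overlap of at least 1 bp) with promoter windows and gene bodies of GENCODE release 44, lifted to GRCh37. Fisher's exact test was applied to each of 20098 protein-coding genes and an exact permutation test (70 groupings) to the base pairs covered, both two-sided with Benjamini-Hochberg adjustment, in Python 3.11.15 with scipy 1.17.1. The functions were tested on simulated data. The tests compare the MYCN groups with lines as replicates, and with 1 library per line the variation of lines and of libraries cannot be told apart. CHP-902R is grouped by its MYCN label. Alternatives were score, number of peaks, overlap, window, start site and each line left out. The 10 genes and the 5 lists were chosen with earlier results of these data known. All 10 genes are named, with those overlapping them and the 3 of each list with promoter peaks in most lines (ties by mean score rank; tied genes are also named). One sequence is not reported here.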

Additional observations from a re-analysis of the deposited data

Results flagged for a closer look

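Within a MYCN group, 3 of 44 sets of 4 values had a line far from the others by Dixon's criterion, and chance gives about 1 in 20. In the MNA lines, LAN-2 had 1813 bp of the NEFH promoter window and 1139 bp of the NES promoter window under peaks, and the other 3 lines had 0 for both genes. In the single copy lines, SK-N-AS had 485 bp of the VIM windows under a peak and the others 0. In each case the other lines of the group were equal at 0, so any line with a peak would have stood out. LAN-2 has the longest peak list, with 112412 peaks. Its NES and NEFH peaks scored above 99.8% and 98.4% of that list. Shortening every list to its 70816 highest scores could therefore not remove them, and it does not make read depth equal. Whether list length or depth bears on these values was not tested.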

How the results depend on the processing

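None of the 10 genes separated the MYCN groups under any alternative, for promoters or bodies. PRPH had its promoter peak in 8 lines under every peak and window choice except a single TSS per gene, which gave 6. Counting only peaks with a score of 100 or more left 11 promoter and 23 body combinations of gene and line, in place of 22 and 51, and 12 and 46 protein-coding genes that separated the groups, in place of 61 and 29. NEFH then had 2 lines and VIM and MAP2 none. The PRPH difference in bp was then 456 in place of 73 (exact permutation test, p = 0.314), and the SJNB-1 peak from +947 to +2479, with a score of 99.8, no longer counted. With each list shortened to its 70816 highest scores, 45 genes separated by body peaks, and MNA minus single copy turned to -25 percentage points of lines for MAP2 promoter peaks and to -21 bp for VIM and -80.5 bp for MAP2 of windows under peaks. A single TSS per gene left 12 combinations and 26 separating promoters, with no MAP2 peak. MNA minus single copy was then -50 percentage points of lines for PRPH promoter peaks and 50 for VIM, in place of 0 and 25 (Fisher's exact p = 0.429 for either gene with a single TSS). The PRPH value counts SK-N-AS, whose peak starts at +995 and only just reaches the window, which ends 1000 bp after the TSS. Over all annotated genes 127 promoters and 77 bodies separated. Leaving out each line in turn gave 112 to 145 separating promoters and 66 to 93 bodies, since fewer lines had to be split. The bp differences then ran from -195 to 293 for PRPH, which turned without CHP-902R (-75.2), IMR-32 (-195), CLB-GA (-5.42) or SK-N-AS (-106), from -719 to 130 for NEFH (130 without SJNB-1), from -5.25 to 187 for VIM (-5.25 without IMR-32) and from -25.4 to 480 for MAP2 (-25.4 without N206). The cause was not tested. None of these differences passed its test in the full data, and the only other direction that turned was that of the mean number of genes with a promoter peak (0.5, MNA minus single copy), which was -0.25 with shortened lists and -0.167 without LAN-2. No paired analysis was possible because a replicate number only names a line and pairs no MNA line with a single copy line. Read depth per line is not in the files, so a missing peak does not show low methylation, and with 4 lines against 4 no gene passed the adjustment over all genes.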

Other observations

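Across the 10 genes, the lines with the TSS under a peak were CHP-902R, IMR-32 and SJNB-1 for PRPH, LAN-2, CLB-GA and SJNB-1 for NEFH, and LAN-2 for NES. N206, SH-SY5Y and SK-N-AS had the TSS of none of the 10 genes under a peak. SJNB-1, with the shortest peak list, and LAN-2, with the longest, each had 2.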
